A study of Mus musculus with 4 samples.

Results

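Transcripts of 9 calcium-binding proteins were followed in the brains of mice with and without angiotensin II hypertension and photothrombotic stroke. They are the S100A genes *S100a4*, *S100a6*, *S100a10* and *S100a11* and the annexin genes *Anxa1*, *Anxa2*, *Anxa3*, *Anxa4* and *Anxa5*. The 9 genes were taken by name from the 33981 genes of the deposited tables.

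S100A proteins are small EF-hand proteins that dimerize and, on binding calcium, expose a surface that holds partner proteins. Annexins bind phosphatidylserine and other acidic membrane lipids when calcium rises, and serve in membrane trafficking, membrane repair and the control of inflammation. The families meet in shared complexes: S100A10 joins annexin A2 in a tetramer at the plasma membrane that assembles plasminogen and its activators, and S100A11 binds annexin A1. In the brain many of these genes are known from microglia, macrophages, reactive astrocytes, endothelium and meningeal cells, and S100A10 is also known from cortical projection neurons.

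RNA came from a coronal piece of brain with the prefrontal cortex of male C57BL/6J mice aged 3 to 5 months. Normotensive (NT) mice received saline by infusion over the 28 days of the protocol, and hypertensive (HT) mice angiotensin II (0.28 mg/kg/day) instead. On day 7 sham surgery or photothrombosis, the light-induced clotting of cortical vessels, was performed over the prefrontal cortex. Brains were collected on day 28, so every stroke value is a late one. Both sham groups (NT + Sham, HT + Sham) and both stroke groups (NT + Stroke, HT + Stroke) have 6 libraries each, with 15922919 to 24865998 counts per library (median 18497216). Each group has 1 entry in GEO and the tables number its libraries from 1 to 6. Each library was treated as 1 mouse, and if some shared an animal the P-values would measure only the spread between libraries. Levels are given as CPM, counts relative to the TMM-scaled total of the library, or as FPKM where genes are compared with each other, since FPKM also divides by gene length.

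3 libraries stood apart from their groups in genes of macrophages and reactive astrocytes. *Lyz2*, the lysozyme of macrophages, was at 113 CPM or above in all 6 libraries of NT + Stroke and at 15.7 CPM or below in all 6 of NT + Sham. HT + Stroke libraries 1 and 6 held 25.5 and 34.4 CPM, while the other 4 of that group held 143 to 706 CPM. HT + Sham library 6 held 164 CPM, while the other 5 held 12.96 to 18.5 CPM. *Gfap*, the intermediate filament of reactive astrocytes, placed the same libraries in the same way: 249 and 231 CPM in HT + Stroke libraries 1 and 6 against 920 to 1346 CPM in the other 4, and 550 CPM in HT + Sham library 6 against 163 to 242 CPM in the other 5. All 3 were kept in every test, and the main results of each comparison with an HT group are also given without them. Since these libraries were picked from their own marker levels, the values without them are a description only.

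All 9 genes lie in the tables at the positions of GENCODE release M21 on GRCm38. *S100a4* (chr3:90603771-90606045) and *S100a6* (chr3:90612882-90624181) are neighbours, 6837 bases apart, and *S100a11* (chr3:93520488-93526287) and *S100a10* (chr3:93555080-93564643) lie 28793 bases apart on the same strand of the same chromosome. *Anxa5* (chr3:36448923-36475894) is also on chromosome 3, and *Anxa1* (chr19:20373428-20390944), *Anxa2* (chr9:69453620-69491795), *Anxa3* (chr5:96793339-96845966) and *Anxa4* (chr6:86736840-86793584) are on 4 other chromosomes. RefSeq promoters (GRCm38.p6) were at hand for 7 of the 9 genes, with 2 for *Anxa4*, and not for *S100a10* and *Anxa3*. Those of *Anxa1*, *Anxa2* and *S100a11* are shown because these 3 genes were among the 4 tested genes that more than doubled in mean level with stroke in NT mice, and because they hold letters of common core and AP-1 motifs. They run over the 250 bases before the RefSeq start of the gene, at chr19:20390672-20390921 on the minus strand, chr9:69453433-69453682 on the plus strand and chr3:93520246-93520495 on the plus strand. The RefSeq starts are not the gene starts listed above. The whole *Anxa1* stretch, and the ends of those of *Anxa2* and *S100a11*, lie within the listed genes. Capitals mark each match on either strand. The letters searched were TGANTCA for the factor AP-1, which joins Fos and Jun proteins, and TATAAA for the TATA box, which places the start of transcription. GGGCGG stood for the GC box bound by Sp1, TTCNNNGAA for the factors of the STAT family, and CCAAT for the box that nuclear factor Y binds. None of the matches shown overlap.
Anxa1: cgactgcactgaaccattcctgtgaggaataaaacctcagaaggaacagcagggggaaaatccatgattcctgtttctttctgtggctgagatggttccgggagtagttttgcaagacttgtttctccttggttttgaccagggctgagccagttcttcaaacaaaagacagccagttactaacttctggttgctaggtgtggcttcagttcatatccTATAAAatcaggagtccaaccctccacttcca
Anxa2: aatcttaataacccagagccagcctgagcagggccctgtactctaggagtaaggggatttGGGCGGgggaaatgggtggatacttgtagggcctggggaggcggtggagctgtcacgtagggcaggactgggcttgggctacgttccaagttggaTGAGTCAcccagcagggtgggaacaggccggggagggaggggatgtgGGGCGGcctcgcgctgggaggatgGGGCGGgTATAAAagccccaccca
S100a11: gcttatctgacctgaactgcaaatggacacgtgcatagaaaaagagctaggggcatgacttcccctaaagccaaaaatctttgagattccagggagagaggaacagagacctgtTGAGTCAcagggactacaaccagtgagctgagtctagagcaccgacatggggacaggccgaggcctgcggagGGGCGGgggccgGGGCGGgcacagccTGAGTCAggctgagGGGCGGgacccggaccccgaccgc
The promoter of *S100a11* holds the AP-1 letters with their first base 136 and 38 bases before the start, and that of *Anxa2* holds them 95 bases before the start. AP-1 letters occurred in 2 of the 8 promoters of these genes and in 6.75% of 32851 promoters of the same length. A TATA box occurred in 3 of 8, in *Anxa1* (32 bases before the start), *Anxa2* (17 bases) and *S100a4* (31 bases), and in 12.4% of all promoters. GC boxes occurred in 2 of 8, *Anxa2* and *S100a11*, with 3 each, and in 32.7% of all promoters. The CCAAT box occurred in 1 of 8, *S100a6*, and in 33.8% of all, and the STAT letters in 0 of 8 and in 7.02% of all. Both promoters of *Anxa4* and that of *Anxa5* held none of the 5 motifs. A match describes these letters only and does not show binding.

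Per unit of gene length, the 9 genes spanned a wide range of levels in NT + Sham mice. *S100a10* (32.5 ± 3.01 FPKM, mean ± SD, n = 6) and *Anxa5* (29.9 ± 1.38) were the most abundant, and their libraries overlapped. *S100a6* (15.1 ± 2.88) and *S100a11* (11.9 ± 2.22) came next and overlapped each other. *Anxa2* (3.63 ± 0.486) overlapped *Anxa3* (3.25 ± 0.216), and *Anxa4* (0.691 ± 0.139) overlapped *Anxa1* (0.599 ± 0.0914). Between these pairs the libraries did not overlap. *S100a4* was the lowest, at 0.138 ± 0.293 FPKM, and overlapped *Anxa1*. The summed FPKM of the 9 genes was 87.8 to 106 in NT + Sham libraries and 140 to 210 in NT + Stroke libraries. The order was different after stroke: in NT + Stroke, *Anxa5* (52.5 ± 6.88 FPKM) stood above *S100a10* (36.3 ± 2.48) with no overlap between their libraries, while *S100a10*, *S100a11* (29.9 ± 8.87) and *S100a6* (28.5 ± 6.63) overlapped as neighbours. The share of *S100a10* in the summed FPKM was 33.2 ± 1.55% in NT + Sham and 21.8 ± 3.72% in NT + Stroke, and that of *Anxa1* was 0.613 ± 0.0744% and 2.77 ± 0.777%.

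The comparison of NT + Stroke with NT + Sham asks what stroke alone did to these genes 21 days after the injury. All 5 annexins rose, and so did *S100a6* and *S100a11*. *S100a10* did not pass the test and *S100a4* was too low to be tested. In this comparison 14.4% of the 16835 genes tested were called higher (adjusted *P* under 0.05), against 7 of the 8 genes tested here. In the same 7 genes every NT + Stroke library lay above every NT + Sham library, which held for 7.78% of all genes tested. In whole tissue, more cells of a type that carries a transcript and more of that transcript per cell cannot be told apart.

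*Anxa1*, whose product acts on formyl peptide receptors and limits the entry of neutrophils, showed the largest fold change of the 8 genes tested. Its level was 1.29, 1.52 and 2.02 CPM (lowest, median and highest library) in NT + Sham and 5.73, 12.02 and 18.2 CPM in NT + Stroke. The lowest stroke library was thus above the highest sham library, and the stroke libraries differed more among themselves than the sham libraries did. The mean was 7.73-fold higher, with a log2 fold change of 2.94 ± 0.25 (SE) and an adjusted *P* of 8.07e-07. *Anxa4*, a membrane-binding annexin best known from epithelia, was at 2.78, 2.84 and 4.35 CPM in NT + Sham and at 5.69, 9.21 and 13.1 CPM in NT + Stroke. Its groups did not overlap, and its log2 fold change was 1.52 ± 0.19 (adjusted *P* = 1.94e-05).

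*Anxa2*, the annexin that pairs with S100A10 and serves as a plasminogen receptor, was at 10.4, 14.1 and 15.2 CPM in NT + Sham and at 24.3, 34.9 and 47.7 CPM in NT + Stroke. The groups were apart in every library, and the log2 fold change was 1.36 ± 0.15 (adjusted *P* = 1.26e-05). *Anxa3*, an annexin described in microglia and neutrophils, was at 10.8, 11.98 and 13.2 CPM in NT + Sham and at 15.02, 21.2 and 25.3 CPM in NT + Stroke. The lowest stroke library was above the highest sham library, and the log2 fold change was 0.80 ± 0.11 (adjusted *P* = 4.00e-05). *Anxa5*, the phosphatidylserine binder used as a probe of dying cells, was at 50.2, 53.6 and 56.8 CPM in NT + Sham and at 76.5, 92.6 and 106 CPM in NT + Stroke. It had the smallest fitted fold change of the 5 annexins, 0.76 ± 0.08 on the log2 scale, with an adjusted *P* of 1.29e-06, and its sham libraries lay close together.

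*S100a11*, the partner of annexin A1, was at 4.30, 6.03 and 7.47 CPM in NT + Sham and at 10.8, 13.9 and 22.9 CPM in NT + Stroke. All 6 stroke libraries were above the sham range, and the log2 fold change was 1.28 ± 0.18 (adjusted *P* = 5.56e-05). *S100a6*, or calcyclin, known from astrocytes and fibroblasts, was at 18.0, 19.0 and 28.1 CPM in NT + Sham and at 28.4, 35.9 and 49.7 CPM in NT + Stroke. The highest sham library nearly reached the lowest stroke library, and the log2 fold change was 0.87 ± 0.16 (adjusted *P* = 0.00103).

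*S100a10*, the partner of annexin A2, was at 34.5, 39.7 and 45.2 CPM in NT + Sham and at 39.9, 41.1 and 47.9 CPM in NT + Stroke. The groups overlapped, and 2 stroke libraries lay above all sham libraries. Its log2 fold change was 0.12 ± 0.07 (95% interval -0.03 to 0.26, adjusted *P* = 0.255). It stood outside the pattern of the other 7 genes tested, whose lowest 95% bound was 0.53 (*S100a6*).

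*S100a4*, a protein of fibroblasts and T cells that binds non-muscle myosin, had 60 counts in all over the 24 libraries, with at least 1 count in 15 of them and no more than 10 in any. The counts of lowest, median and highest library were 0, 0 and 8 in NT + Sham, 0, 3.5 and 10 in NT + Stroke, 0, 2.5 and 6 in HT + Sham and 0, 1 and 7 in HT + Stroke. The groups overlapped, and the gene did not pass the filter on low counts in any comparison. Its level is uncertain in another way: in the annotation, 302 of its 584 exonic bases (51.7%) also belong to *Gm42674*, a gene on the same strand that held 2 counts over the 24 libraries. Whether reads on shared bases were counted for either gene is not given in the sources used here. The other 8 genes shared 0% to 3.07% of their exonic bases with another gene.

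**Figure D1:**
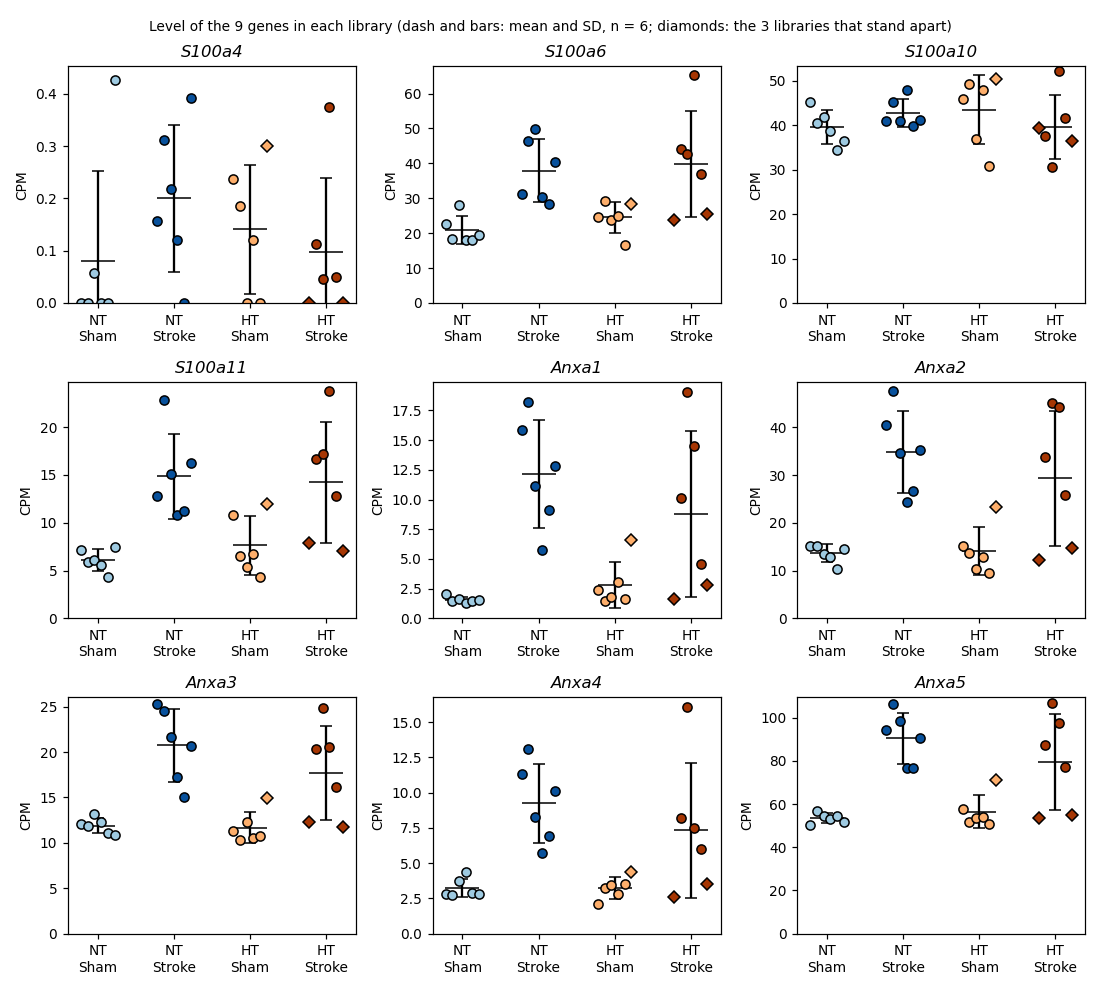
Level of each of the 9 genes in CPM (y axes, from 0) in the 24 libraries, by group (x axis). Points are libraries, the dash and bars are the mean and SD of 6 libraries, and diamonds are HT + Sham library 6 and HT + Stroke libraries 1 and 6. For 7 genes all NT + Stroke points lie above all NT + Sham points, *S100a10* is level across the groups, and the HT + Stroke diamonds lie near the sham points.

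The same question in hypertensive mice, HT + Stroke vs HT + Sham, gave positive estimates for the same 7 genes with a wider spread, and a negative one for *S100a10*. None of the 8 genes tested was called by edgeR, in a comparison in which 0.544% of 16741 genes were called higher. 7 of the 8 had an unadjusted *P* under 0.05 in edgeR, and DESeq2 called 4 of the 9, *Anxa3*, *Anxa4*, *Anxa5* and *S100a6*, and 2.12% of 32562 genes higher. With all 4 groups in one edgeR fit 6 of the 8 were called, and 4.76% of 17608 genes. The libraries of the groups overlapped for all 9 genes, while all libraries of HT + Stroke lay above all of HT + Sham for 0.579% of the genes tested.

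*Anxa1* was at 1.48, 2.09 and 6.62 CPM in HT + Sham and at 1.65, 7.34 and 19.0 CPM in HT + Stroke. Of its HT + Stroke libraries, 3 were above all sham libraries, and libraries 1 (1.65 CPM), 5 (4.58 CPM) and 6 (2.81 CPM) were within the sham range. The log2 fold change was 1.64 (95% interval 0.28 to 3.00, adjusted *P* = 0.208). *Anxa2* was at 9.42, 13.3 and 23.3 CPM in HT + Sham and at 12.2, 29.8 and 45.0 CPM in HT + Stroke. Libraries 1 and 6 of HT + Stroke, at 12.2 and 14.7 CPM, were again within the sham range and the other 4 above it, and the log2 fold change was 1.06 (95% interval 0.28 to 1.84, adjusted *P* = 0.160).

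*Anxa4* was at 2.08, 3.35 and 4.36 CPM in HT + Sham and at 2.62, 6.78 and 16.1 CPM in HT + Stroke (log2 fold change 1.19, 95% interval 0.39 to 1.99, adjusted *P* = 0.127). *Anxa5* was at 50.9, 53.8 and 71.2 CPM in HT + Sham and at 53.4, 82.3 and 107 CPM in HT + Stroke (log2 fold change 0.51, 95% interval 0.15 to 0.86, adjusted *P* = 0.136). For both genes 4 stroke libraries were above all sham libraries. *Anxa3* was at 10.3, 11.02 and 14.9 CPM in HT + Sham and at 11.7, 18.3 and 24.9 CPM in HT + Stroke, and had the smallest adjusted *P* of the 9 in this comparison, 0.0967 (log2 fold change 0.61, 95% interval 0.25 to 0.98).

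*S100a11* was at 4.28, 6.65 and 11.98 CPM in HT + Sham and at 7.09, 14.7 and 23.8 CPM in HT + Stroke (log2 fold change 0.91, 95% interval 0.19 to 1.63, adjusted *P* = 0.190). *S100a6* was at 16.7, 24.7 and 29.3 CPM in HT + Sham and at 23.6, 39.8 and 65.3 CPM in HT + Stroke (log2 fold change 0.70, 95% interval 0.21 to 1.197, adjusted *P* = 0.144). For both S100A genes 4 stroke libraries were above all sham libraries. *S100a10* was at 30.9, 47.0 and 50.3 CPM in HT + Sham and at 30.6, 38.5 and 52.2 CPM in HT + Stroke, with a log2 fold change of -0.13 (95% interval -0.41 to 0.16, adjusted *P* = 0.687).

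Without the 3 libraries that stood apart, 5 HT + Sham and 4 HT + Stroke libraries remained, and the 7 genes that rose in NT mice were also called in HT + Stroke vs HT + Sham, where 6.81% of 16956 genes were then called higher. Their log2 fold changes were then 2.55 for *Anxa1*, 1.65 for *Anxa4*, 1.60 for *Anxa2*, 1.38 for *S100a11*, 0.99 for *S100a6*, 0.90 for *Anxa3* and 0.79 for *Anxa5*, with adjusted *P* from 0.000113 (*Anxa2*) to 0.00232 (*S100a6*). That of *S100a10* was -0.06 (adjusted *P* = 0.896). As the 3 libraries were picked from macrophage and astrocyte marker levels already seen, these values are a description and not a test. Single libraries were enough to change calls. Without HT + Stroke library 1 there were 3 calls (*Anxa3*, *Anxa4* and *Anxa5*), and without HT + Stroke library 6 there was 1 (*Anxa3*).

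**Figure D2:**
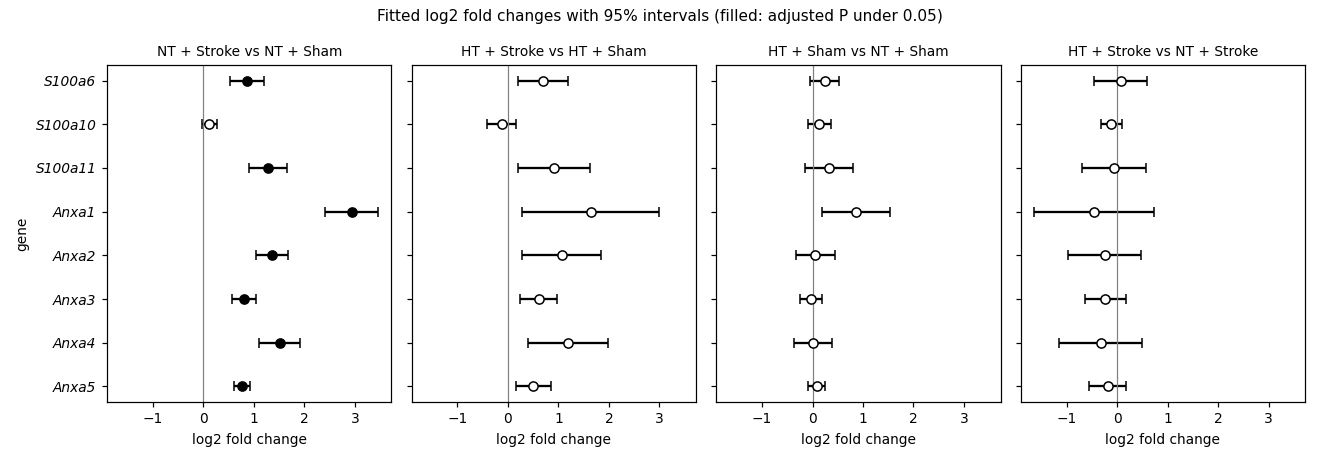
Fitted log2 fold changes (x axis) of the 8 genes tested (y axis) in 4 comparisons, with 95% intervals, filled where the adjusted P was under 0.05. In NT + Stroke vs NT + Sham 7 intervals lie above 0 and are filled, in HT + Stroke vs HT + Sham the same 7 lie above 0 but are open, and in the comparisons of HT with NT mice no point is filled.

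Hypertension itself was examined in sham mice and in stroke mice. In HT + Sham vs NT + Sham none of the 8 genes tested was called, and 0.0% of the 16581 genes tested were called in either direction (0 by DESeq2, and 1332 with an unadjusted *P* under 0.05 in edgeR). *Anxa1* was the only one of the 8 with an unadjusted *P* under 0.05. Its log2 fold change was 0.85 (95% interval 0.18 to 1.53, adjusted *P* = 0.511), and 0.39 without HT + Sham library 6, at an adjusted *P* of 0.9999. The other 7 lay between -0.03 (*Anxa3*, 95% interval -0.24 to 0.19) and 0.33 (*S100a11*, 95% interval -0.14 to 0.80). The narrowest interval was that of *Anxa5*, -0.08 to 0.25.

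In HT + Stroke vs NT + Stroke none of the 8 genes was called and none had an unadjusted *P* under 0.05, by edgeR or DESeq2. Of the 17008 genes tested 0.0% were called (0 by DESeq2, and 1230 with an unadjusted *P* under 0.05 in edgeR). The intervals were wide. *Anxa1* had a log2 fold change of -0.46 (95% interval -1.65 to 0.73), *Anxa4* of -0.33 (-1.16 to 0.50) and *Anxa2* of -0.25 (-0.97 to 0.47) (95% intervals), so that sizeable differences in either direction lie inside them. *S100a6* had 0.07 (95% interval -0.46 to 0.60) and *S100a10* had -0.11 (95% interval -0.33 to 0.10). With 1 library left out *Anxa1* ran from -0.84 (without HT + Stroke library 3) to -0.25 (without HT + Stroke library 1). Without the 3 libraries that stood apart it was at -0.012, *Anxa3* at -0.021 (-0.23 with them), *S100a6* at 0.32 and *S100a10* at -0.084, and none of the 8 was called. The interaction, which asks whether the stroke difference of a gene was unlike in HT and NT mice, called none of the 8 genes and 0.0% of 17608 genes (4 genes higher and 18 lower by DESeq2, none of them among these 9, and 1836 with an unadjusted *P* under 0.05 in edgeR). The stroke difference of *Anxa1* was lower in HT mice by 1.31 on the log2 scale in the fit (95% interval -2.75 to 0.13, adjusted *P* = 0.517). That value was -0.84 without HT + Sham library 6 and -0.39 without all 3 libraries that stood apart. Hence the calls in NT mice and their absence in HT mice are not shown to be a difference between them.

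HT + Stroke vs NT + Sham, both insults against neither, shares its controls with NT + Stroke vs NT + Sham. The same 7 genes were called higher, where 8.38% of 16749 genes tested were. The log2 fold changes were 2.496 for *Anxa1* (adjusted *P* = 0.0141), 1.24 for *S100a11* (0.0123), 1.21 for *Anxa4* (0.0386), 1.12 for *Anxa2* (0.0308), 0.94 for *S100a6* (0.0183), 0.59 for *Anxa5* (0.0225) and 0.59 for *Anxa3* (0.0270). *S100a10* was at 0.01 (95% interval -0.21 to 0.23, adjusted *P* = 0.959). The groups overlapped for all 9 genes, and 4 or 5 of the 6 HT + Stroke libraries were above all NT + Sham libraries for each of the 7 called. The number of genes called, 7, depended on single libraries. It was 3 without NT + Sham library 1 or 4 or HT + Stroke library 2 or 4, and 4 without NT + Sham library 5 or 6. *Anxa1*, *S100a6* and *S100a11* were called whichever of the 12 libraries was left out. Of those 12 fits, *Anxa5* was called in 8, *Anxa3* in 6, *Anxa2* in 4 and *Anxa4* in 2. Without the 3 libraries that stood apart all 7 were called, where 12.2% of 17168 genes were, with log2 fold changes from 0.797 (*Anxa3*) to 2.95 (*Anxa1*).

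Since S100A10 and annexin A2 form a complex, the ratio of their FPKM was compared in single libraries. The ratio of *S100a10* to *Anxa2* was 7.68, 9.23 and 10.2 in NT + Sham (lowest, median and highest library) and 2.93, 3.62 and 6.07 in NT + Stroke, with no overlap. It was 6.66, 10.51 and 11.48 in HT + Sham and 2.09, 4.30 and 9.95 in HT + Stroke, which overlapped. On the log2 scale the mean ratio was lower in NT + Stroke than in NT + Sham by 1.22 (1.95 ± 0.39 against 3.17 ± 0.15, n = 6 each, exact two-sided permutation test, *P* = 0.00216, the smallest that exchanging 6 and 6 libraries can give, adjusted *P* = 0.00866 over 4 comparisons). It was lower in HT + Stroke than in HT + Sham by 1.08 (2.21 ± 0.82 against 3.29 ± 0.29, n = 6 each, exact *P* = 0.0173, adjusted *P* = 0.0346). The fitted log2 fold changes behind these ratios were 1.36 and 1.06 for *Anxa2* and 0.12 and -0.13 for *S100a10*. The lower ratios thus largely restate the change of *Anxa2* and are no separate result. In HT mice *Anxa2* itself was not called by edgeR (unadjusted *P* = 0.0118, adjusted *P* = 0.160 over 16741 genes). The *P* of the ratio was adjusted over 4 comparisons only. The call of the ratio in HT mice was lost when any 1 library other than HT + Sham library 6 or HT + Stroke library 1 or 6 was left out, with adjusted *P* from 0.0519 to 0.0693. Without the 3 libraries that stood apart the difference was -1.65, which is a description only.

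Between HT + Sham and NT + Sham the log2 ratio was 0.12 higher in HT mice (exact permutation test, *P* = 0.383, adjusted *P* = 0.509). Without HT + Sham library 6, whose ratio was the lowest of its group, it was 0.23 higher with an adjusted *P* of 0.0346. As that library was picked from marker levels already seen, this value is a description and not a test. No other single library left out gave an adjusted *P* under 0.05 here. Between HT + Stroke and NT + Stroke the log2 ratio was 0.26 higher in HT mice (exact permutation test, *P* = 0.509, adjusted *P* = 0.509). HT + Stroke libraries 1 and 6 had the highest ratios of their group, 9.95 and 7.61. The first was within the range of the NT + Sham libraries. The second was just below all NT + Sham libraries (lowest 7.68), and of the HT + Sham libraries it was above library 6 alone (6.66). Without the 3 libraries that stood apart the difference between HT + Stroke and NT + Stroke was -0.20.

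**Figure D3:**
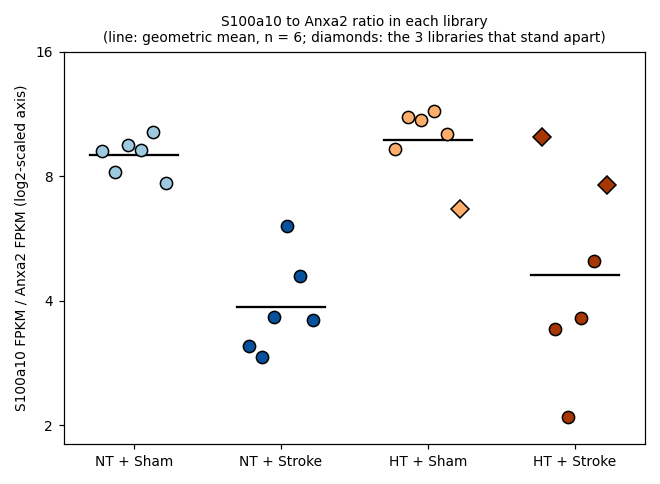
Ratio of S100a10 FPKM to Anxa2 FPKM (y axis, log2-scaled) in each library, by group (x axis); lines are geometric means of 6 libraries and diamonds the 3 libraries that stand apart. All NT + Stroke libraries (2.93 to 6.07) lie below all NT + Sham libraries (7.68 to 10.2), and HT + Stroke spreads from 2.09 to 9.95.

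Within the 12 stroke libraries, after the mean of each group was taken away, the 7 genes that rose varied together and *S100a10* did not vary with them. Over the 21 pairs of the 7 genes, Pearson's r of log2 CPM was 0.67 to 0.98 (median 0.93) and Spearman's rank correlation 0.69 to 0.99 (median 0.91). In the 7 pairs with *S100a10*, r was -0.27 to 0.35 (median 0.01). The closest pair was *Anxa2* with *Anxa5* (r = 0.98, and 0.97 without the 2 farthest libraries), followed by *Anxa1* with *Anxa2* (0.98 and 0.97). The loosest pair was *S100a6* with *Anxa4* (r = 0.67). Without HT + Stroke libraries 1 and 6, the 21 correlations over 10 libraries were 0.25 to 0.96 (median 0.84), so part of the pattern rests on those libraries. In the 12 sham libraries the 21 pairs had a median r of 0.56, and 0.26 without HT + Sham library 6. There the 7 pairs with *S100a10* were no looser, with r of -0.10 to 0.80 (median 0.53, and 0.46 without that library). The separate course of *S100a10* was thus seen in the stroke libraries. In the sham libraries the 7 genes had less of a common course from which it could depart, so its absence there cannot be read. No difference in correlation was tested. All these correlations are descriptions over libraries that share scaling and tissue sampling.

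The genes whose levels were most like the mean of the 8 tested genes over the 12 stroke libraries, of 15571 genes ranked, were *Laptm5*, *Npc2*, *Apoe*, *Trem2*, *C1qc*, *C1qa*, *Unc93b1*, *Ctsz*, *Apoc1* and *Ctsd*, with Pearson's r from 0.994 (*Laptm5*) to 0.986 (*Ctsd*). Spearman's rank correlation was 0.965 to 0.993, r without the 2 farthest libraries was 0.971 to 0.994, and r without HT + Stroke libraries 1 and 6 was 0.965 to 0.993. *Trem2*, *C1qa* and *C1qc* are known microglial and macrophage genes, *Ctsd*, *Ctsz*, *Npc2* and *Laptm5* are lysosomal, *Unc93b1* carries nucleic acid-sensing Toll-like receptors, and *Apoe* and *Apoc1* encode apolipoproteins. *Anxa2* (r = 0.98), *Anxa5* (0.97) and *S100a11* (0.96) followed the mean of the other tested genes of the 9 most closely, and *S100a10* least (0.04).

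**Figure D4:**
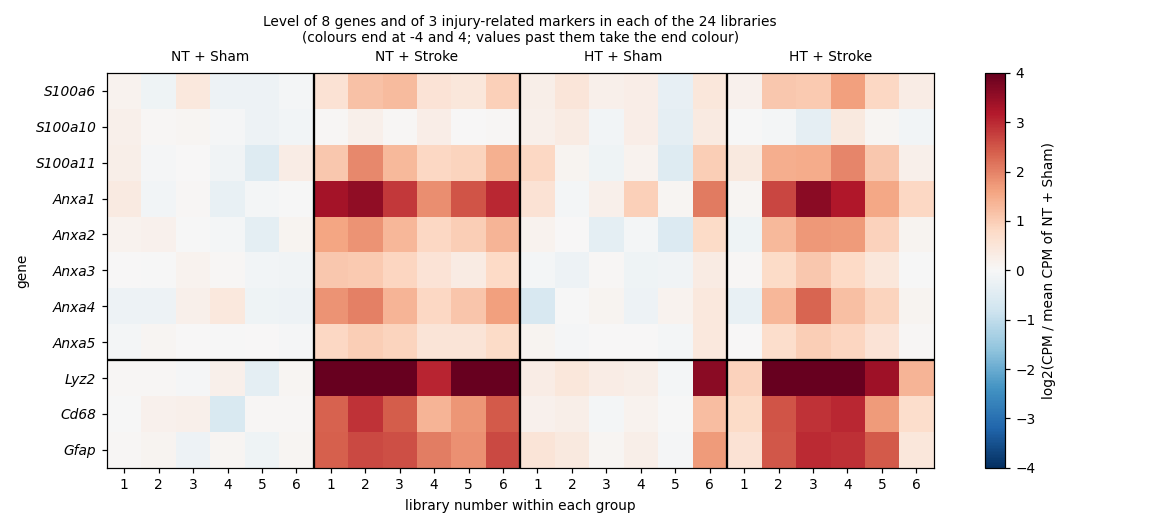
Level of the 8 tested genes and of Lyz2, Cd68 and Gfap (rows) in each of the 24 libraries (columns, numbered within each group), as log2 of CPM over the mean of NT + Sham, with colours ending at -4 and 4. Rows other than S100a10 darken together in the NT + Stroke libraries and in HT + Stroke libraries 2 to 5, HT + Stroke libraries 1 and 6 are near the sham colour, and HT + Sham library 6 is raised.

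The rest of both families was examined in NT + Stroke vs NT + Sham, where 14.4% of all genes tested were called higher and 11.5% lower, with a median log2 fold change of -0.01. These shares are the background for the lists that follow. Of 12 other S100 genes 8 were tested and 6 were called, all higher, with a median of 0.41 over the 8. *S100b*, the astrocyte S100 protein, was at 102 ± 4.98 CPM in NT + Sham and 130 ± 6.64 CPM after stroke (mean ± SD, with a log2 fold change of 0.36, adjusted *P* = 7.63e-05). *S100a16* (0.35, adjusted *P* = 0.000926), *S100a13* (0.47, adjusted *P* = 0.00470) and *S100a1* (0.35, adjusted *P* = 0.00836) rose by similar amounts. *S100a8* and *S100a9*, the calprotectin subunits of neutrophils, were called with log2 fold changes of 3.00 (adjusted *P* = 0.0174) and 2.98 (adjusted *P* = 0.0276), but varied widely at 4.73 ± 5.74 and 5.30 ± 6.65 CPM in NT + Stroke. Both belong to a list of 8 neutrophil markers. The sum of that list was 22.4 and 58.8 CPM in NT + Stroke libraries 1 and 5, and 2.99 to 4.48 CPM in the rest of that group. *S100z* was listed at 0 counts in both groups. Of 7 other annexins 4 were tested. *Anxa9* rose from 1.33 ± 0.157 to 2.06 ± 0.2995 CPM (log2 fold change 0.64, adjusted *P* = 0.0121), *Anxa7* fell by 0.21 on the log2 scale (adjusted *P* = 0.00266), and *Anxa6* and *Anxa11* did not pass (0.07 and -0.23). *Anxa6* had 112 ± 5.08 CPM in NT + Sham.

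Partners and receptors followed in part. Of 13 genes listed as partners of the annexin A2-S100A10 complex 12 were tested and 6 rose, with a median of 0.44. *Ahnak*, a giant scaffold protein bound by the complex, was at 19.6 ± 1.46 CPM in NT + Sham and 32.6 ± 6.88 CPM after stroke (log2 fold change 0.74, adjusted *P* = 0.000128). The plasminogen activators and their receptor rose too: *Plau* by a log2 fold change of 1.32 (adjusted *P* = 0.000139), *Plaur* by 1.17 (adjusted *P* = 0.000195) and *Plat* by 0.55 (adjusted *P* = 0.000585). *Plgrkt*, a plasminogen receptor, rose by 0.34 (adjusted *P* = 0.00376). The other 6 tested did not pass, among them the ion channels *Kcnk3* (-0.18) and *Asic1* (0.01) and the glutamate receptor *Grm5* (-0.15). Of 5 receptors of extracellular annexin A1 and S100 proteins with counts deposited, 4 were tested and 2 rose: *Tlr4* (log2 fold change 1.41, adjusted *P* = 0.00159) and *Ager*, the receptor for advanced glycation end products (1.001, adjusted *P* = 0.00900). The annexin A1 receptor gene *Fpr1* was at 0.424 ± 0.235 and 0.773 ± 0.172 CPM (adjusted *P* = 0.0820), and *Fpr2* was too low to be tested.

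Of the 7 intracellular targets of S100 proteins, 3 rose and 3 fell (14.4% and 11.5% of all genes). *Iqgap1* (0.60, adjusted *P* = 0.000158), *Myh9* (0.43, adjusted *P* = 0.000735) and *Trp53* (0.27, adjusted *P* = 0.00341) had positive log2 fold changes, and *Myh10* (-0.27), *Sugt1* (-0.19) and *Cacybp* (-0.17) negative ones, with adjusted *P* of 0.00607, 0.0158 and 0.0286. *Myh9* and *Myh10* encode non-muscle myosin heavy chains, and *Cacybp* the calcyclin-binding protein. In the list of phosphatidylserine exposure and recognition, the lipid that annexins bind, 15 of 16 genes were tested, 9 rose and 2 fell, with a median of 0.26. The leading genes were *Pros1* (1.01, adjusted *P* = 4.45e-06), which bridges exposed phosphatidylserine to TAM receptors, *Itgb5* (0.93, adjusted *P* = 4.68e-06), the TAM receptor *Axl* (0.67, adjusted *P* = 6.32e-06) and *Stab1* (1.21, adjusted *P* = 0.000850). *Tmem30a*, a flippase subunit, and the TAM receptor *Tyro3* fell by 0.32 and 0.24 on the log2 scale (adjusted *P* = 0.00100 and 0.0129). Of 12 genes of plasma membrane repair 3 rose (14.4% of all genes did), with a median of 0.04. *Myof*, a ferlin of membrane fusion, went from 3.00 ± 0.785 to 9.45 ± 2.77 CPM (log2 fold change 1.66, adjusted *P* = 1.98e-05), and the others were *Capn2* (0.31) and *Snap23* (0.32).

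In HT + Stroke vs HT + Sham none of the genes on these 7 lists was called by edgeR. Over these and the marker lists edgeR called 4, all oligodendrocyte markers, DESeq2 25 and the fit of all 4 groups 29. The shares of all genes called higher were 0.544%, 2.12% and 4.76%. Without the 3 libraries that stood apart, 6.81% of 16956 genes were called higher. On the lists, 4 of 8 other S100 genes tested, 3 of 12 partners and 5 of 15 phosphatidylserine genes were called, all higher. Of the targets 1 of 7 and of the repair genes 1 of 12 were called higher. None of the 4 other annexins and 3 receptors tested was called.

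**Figure D5:**
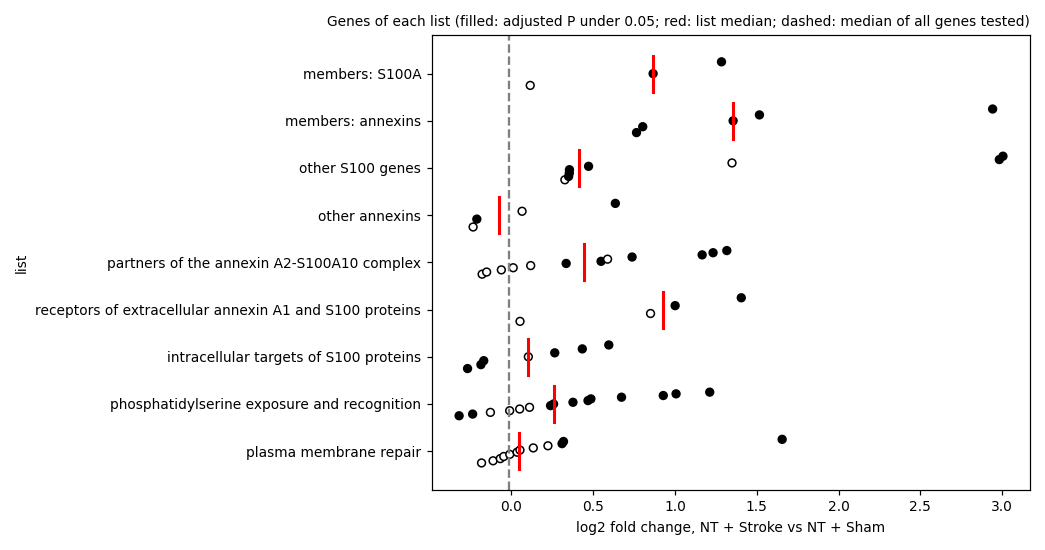
Log2 fold change in NT + Stroke vs NT + Sham (x axis) of each tested gene of 9 lists (rows), filled where the adjusted P was under 0.05, with the list median in red and the median of all 16835 genes (-0.01) dashed. The 5 annexins studied reach from 0.76 to 2.94, and the other annexins from -0.23 to 0.64.

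Markers of several cell types moved with the same libraries. Of 12 microglia and macrophage markers 11 rose in NT + Stroke vs NT + Sham, led by *Ms4a7* (log2 fold change 4.01, adjusted *P* = 1.47e-06), *Cd14* (1.44, adjusted *P* = 3.82e-06), *Lyz2* (4.89, adjusted *P* = 1.18e-05) and *Csf1r* (0.69, adjusted *P* = 1.40e-05), and *P2ry12*, a gene of resting microglia, was at 24.4 ± 2.53 and 25.1 ± 2.44 CPM. The summed level of the 12 was 249 to 275 CPM in NT + Sham, 460 to 1131 CPM in NT + Stroke, 264 to 483 CPM in HT + Sham and 290 to 1304 CPM in HT + Stroke. Without the 3 libraries that stood apart the last 2 ranges were 264 to 287 CPM and 530 to 1304 CPM. Of 8 meningeal and perivascular fibroblast markers 7 rose, with *Dcn* (2.47), *Pdgfrb* (0.66), *Lum* (2.89) and *Col3a1* (4.41) first by adjusted *P*, and their sum was 121 to 144 CPM in NT + Sham, 290 to 888 CPM in NT + Stroke, 127 to 310 CPM in HT + Sham and 144 to 999 CPM in HT + Stroke. Of 8 astrocyte markers 6 rose, *Vim* (1.97), *Gfap* (2.39), *Aqp4* (0.73) and *Gja1* (0.33) first, and their sum was 1978 to 2319, 2640 to 3340, 1958 to 2443 and 2120 to 3892 CPM in the 4 groups in the same order.

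Of 8 cortical neuron markers 7 fell, by 0.83 (*Neurod6*), 0.77 (*Fezf2*), 0.58 (*Tbr1*) and 0.41 (*Snap25*) on the log2 scale for the first 4, and their sum was 5995 to 6595 CPM in NT + Sham, 4137 to 5185 CPM in NT + Stroke, 5014 to 6318 CPM in HT + Sham and 4092 to 5739 CPM in HT + Stroke, so that markers of the labelled cortex were present in every library. Of 7 oligodendrocyte markers 3 rose in NT mice (*Cnp*, *Mbp* and *Mobp*), and 4 rose in HT mice (*Mag*, *Cnp*, *Mbp* and *Mog*). Their sum was 3527 to 4976, 4350 to 5682, 3766 to 4924 and 5157 to 5788 CPM in the 4 groups in the same order. Of 8 endothelial markers *Cdh5* (0.60) and *Cldn5* (0.33) rose, and of 5 red cell markers tested 0 were called, with sums of 290 to 404 CPM and 42.7 to 314 CPM over all libraries. Of 8 neutrophil markers only *S100a8* and *S100a9* were tested, both higher, the sum of the 8 was 0.285 to 58.8 CPM over all libraries, and *Ly6g* was at 0 in HT + Sham. In NT + Stroke that sum was high in libraries 1 and 5 (22.4 and 58.8 CPM), against 2.99 to 4.48 CPM in the rest. The same libraries had the highest red cell sums of the group, 102 and 185 CPM against 42.7 to 80.8 CPM. Of 7 T cell markers *Cd3e* rose (1.12, adjusted *P* = 0.0241) and *Trbc2* fell by 0.85 on the log2 scale (adjusted *P* = 3.84e-06), with a sum of 19.5 to 56.6 CPM over all libraries. The part of each of these cell types in the levels of the 9 genes was not tested.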

How the data were processed

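RNA sequencing of poly(A) RNA from 24 libraries was analysed. The authors deposited 4 tables, each for 1 comparison of groups, with raw counts per gene, which they did not normalize, and FPKM values, which they had scaled by gene length and library size. The submitters' processing notes name featureCounts 1.5.0-p3 and DESeq2 1.20.0. The aligner and genome build are not given in the sources used here, and the listed gene positions match GRCm38. The tables were joined by gene identifier, and 0 was entered for genes that a table did not list. A library's values never differed between the tables that hold it (48 comparisons). Deposited normalized counts (48 columns), group means, and the authors' fold changes and P-values were not used.

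Tests of counts used edgeR 4.0.16 under R 4.3.3 (filterByExpr with minimum count 10 and minimum total 15, TMM, robust two-sided quasi-likelihood test), fitted to all genes and adjusted by Benjamini-Hochberg over all genes tested, threshold 0.05. Intervals are 95%. The fits were tested on simulated data. The ratio of FPKM values was compared by exact permutation tests. Alternatives were DESeq2 1.42.0, limma 3.58.1 on log2(FPKM + 1) and log2(FPKM + 0.1), no scaling, no filter, all groups in one fit, the library number as a block, and each library left out. Leaving out 3 libraries together was chosen after seeing the data.

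The 9 genes, the gene lists and the tests were chosen with earlier results of these data known. Named beside the 9 were, in each list, up to 4 genes called in NT + Stroke vs NT + Sham with the smallest adjusted P, any called in the other direction or at 0, and the 10 genes most like the 9 by Pearson's r (log2 CPM, prior count 2, mean of at least 1 CPM). Other names were chosen after their values were seen. No batch or date was given. The value of 1 listed partner gene is not reported here.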

Additional observations from a re-analysis of the deposited data

Results flagged for a closer look

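4 values stood far from the other 5 libraries of their group, among 40 sets of 6 values examined (the 9 genes and the log2 ratio of *S100a10* to *Anxa2* in 4 groups), where chance gives about 1 in 20. *Anxa1* was at 6.62 CPM and *Anxa5* at 71.2 CPM in HT + Sham library 6, the library that also stood apart in *Lyz2* and *Gfap*. *S100a4* was at 0.427 CPM in NT + Sham library 6 and at 0.376 CPM in HT + Stroke library 4, which are 8 and 7 counts.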

How the results depend on the processing

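The 7 calls in NT + Stroke vs NT + Sham held under every alternative run. *S100a4* passed no filter on low counts. Without the filter, and in DESeq2, it was tested and not called (adjusted P = 0.385 and 0.458 in that comparison). In HT + Stroke vs HT + Sham the 0 calls became 4 with DESeq2, 6 with all 4 groups in one fit, 0 to 3 with 1 library left out and 7 without the 3 libraries that stood apart. The 4 calls over all pathway and marker lists, all oligodendrocyte markers, became 25, 29, 0 to 15 and 44 under the same settings. The share of all genes called higher was 0.544% in the main fit, 2.12% with DESeq2 and 4.76% with all groups in one fit. It was 6.81% without the 3 libraries, and 6 to 451 genes were called higher with 1 library left out. In HT + Stroke vs NT + Sham the 7 calls became 3 with every gene that had a count, 4 with limma at either pseudocount, and 3 to 7 with 1 library left out.

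The library number as a block left 3 of these 7 calls and changed no other count of calls among the 9 genes. Whether the numbers pair the libraries is not given in the sources used here. Same-numbered libraries of 2 groups had correlations of -0.38 to 0.26 in their deviations from the group means, which cannot settle it.

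The difference in the log2 ratio of *S100a10* to *Anxa2* in HT + Stroke vs HT + Sham was -1.30 to -0.85 with 1 library left out, and -1.65 without the 3 libraries that stood apart. In HT + Sham vs NT + Sham it ranged from 0.077 to 0.23 in the same way, and was 0.23 without the 3 libraries that stood apart. In HT + Stroke vs NT + Stroke it was -0.20 without them.

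Directions turned only for values that had not been called. With 1 library left out, HT + Sham vs NT + Sham ranged from -0.15 to 0.15 for *Anxa2*, -0.11 to 0.0067 for *Anxa3* and -0.095 to 0.11 for *Anxa4*. HT + Stroke vs NT + Stroke ranged from -0.13 to 0.18 for *S100a6* and -0.26 to 0.11 for *S100a11*, and HT + Stroke vs NT + Sham from -0.088 to 0.079 for *S100a10*, which was at -0.0042 with every gene that had a count. Without the 3 libraries, HT + Sham vs NT + Sham was -0.15 for *Anxa2* and -0.095 for *Anxa4*, and HT + Stroke vs NT + Stroke 0.24 for *S100a11*, 0.091 for *Anxa2*, 0.033 for *Anxa4* and 0.021 for *Anxa5*. The interaction was then 0.13 for *S100a6*, 0.10 for *S100a11*, 0.25 for *Anxa2*, 0.097 for *Anxa3*, 0.14 for *Anxa4* and 0.025 for *Anxa5*. The cause was not tested for any of these.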
